A study of Homo sapiens with 6 samples.

Results

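The Wnt genes of PC-3 prostate carcinoma cells were examined after exposure to S-adenosylmethionine (SAM), the principal methyl donor of the cell. The set holds the Wnt ligands, the R-spondins, the Frizzled, LRP and LGR receptors, the ubiquitin ligases RNF43 and ZNRF3, the secreted antagonists of the DKK and SFRP families, the AXIN scaffolds and the TCF/LEF transcription factors. A member is any gene whose symbol matches these families, and 54 of the 57396 genes in the count table do. The tested libraries came from cells treated with 160 micromolar SAM for 5 days (3 libraries), and the control libraries from cells given PBS for 5 days (3 libraries). All libraries are from the same established line, which derives from a metastasis of a prostate carcinoma. The labels name no separate cultures for the replicates, so the p-values below rest on variation among these 6 libraries, and that variation may be technical alone.

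Wnt ligands are lipid-modified secreted proteins that bind a Frizzled receptor together with LRP5 or LRP6. This binding inhibits the destruction complex built on AXIN, so that beta-catenin accumulates, enters the nucleus and acts with TCF/LEF factors on target genes. R-spondins, through LGR receptors, remove the ubiquitin ligases RNF43 and ZNRF3, which otherwise clear Frizzled proteins from the cell surface. DKK proteins block the LRP co-receptors and SFRP proteins bind the ligands. In prostate carcinoma, Wnt signalling is known for its part in bone metastasis and in growth without androgens.

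Levels are given as CPM, the count of a gene scaled to the library total. The libraries held between 12020601 and 28995160 gene counts with SAM and between 9379258 and 21768273 in controls. The members took 0.118 to 0.130% of all counts with SAM and 0.120 to 0.126% in controls. A count of 0 in a library allows up to 3 counts, which correspond to 0.103 to 0.254 CPM with SAM and 0.136 to 0.322 CPM in controls, and this covers counting error only. SAM 2 and control 1 stood apart in composition, since a single transcript, CTD-2328D6.1, took 1.56% and 1.18% of their counts, against at most 0.0636% in the other libraries. SAM 3 stood apart by transcript properties. For these, the log2 CPM of each gene was taken as its deviation from the gene's mean over the 6 libraries. In SAM 3 this deviation climbed with GC content by 0.13 for every 10 points, a slope that was -0.06 to -0.004 elsewhere. Per doubling of exonic length, fitted together with GC, the slope was -0.08 in SAM 3 and -0.04 to 0.05 elsewhere. Epithelial markers (KRT8, KRT18, KRT19, EPCAM and CDH1) summed to 2851 to 3595 CPM with SAM and 3331 to 3474 CPM in controls. Of these 5 markers CDH1, which encodes E-cadherin, fell, at 267 CPM with SAM and 365 CPM in controls (log2 fold change -0.45, edgeR adjusted p = 0.0298), and the other 4 overlapped between the groups. Its part in the results below was not tested. KLK2 and KLK3, markers of luminal prostate cells, had no counts in any library. Of the leukocyte markers, CD68 was at 1.21 CPM with SAM and 0.438 CPM in controls (edgeR adjusted p = 0.0439), and PTPRC and CD3E stayed at or under 0.545 CPM in each library.

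Of the 54 members, 33 passed the filter on low counts, 16 had counts but did not pass and 5 had no count in any library. Among the 33 tested members, WNT10B and FZD8 were higher and FZD4 and TCF7L2 lower with SAM, and the other 29 did not pass the threshold (edgeR quasi-likelihood test, Benjamini-Hochberg adjusted p under 0.05 over 15312 genes). These 4 are 12.1% of the tested members, near the 10.4% of all tested genes that passed. By direction, 6.06% of the tested members were higher and 6.06% lower, where 5.19% and 5.24% of all tested genes were. The median log2 fold change was -0.07 over the 33 members and -0.01 over all tested genes. At an unadjusted p under 0.05 there were 11 members, 33.3% of those tested, where 30.6% of all tested genes were. DESeq2 and limma voom each called 4 members, and over all genes DESeq2 called 14.1% of the 13810 genes it gave an adjusted p and limma voom 10.9%. The groups did not overlap in 15 of the 33 members (45.5%), with SAM above in 7 and below in 8, against 36.7% of all tested genes. In RNA from whole cultures, fewer cells that express a gene and less of its RNA per cell cannot be told apart.

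**Figure D1:**
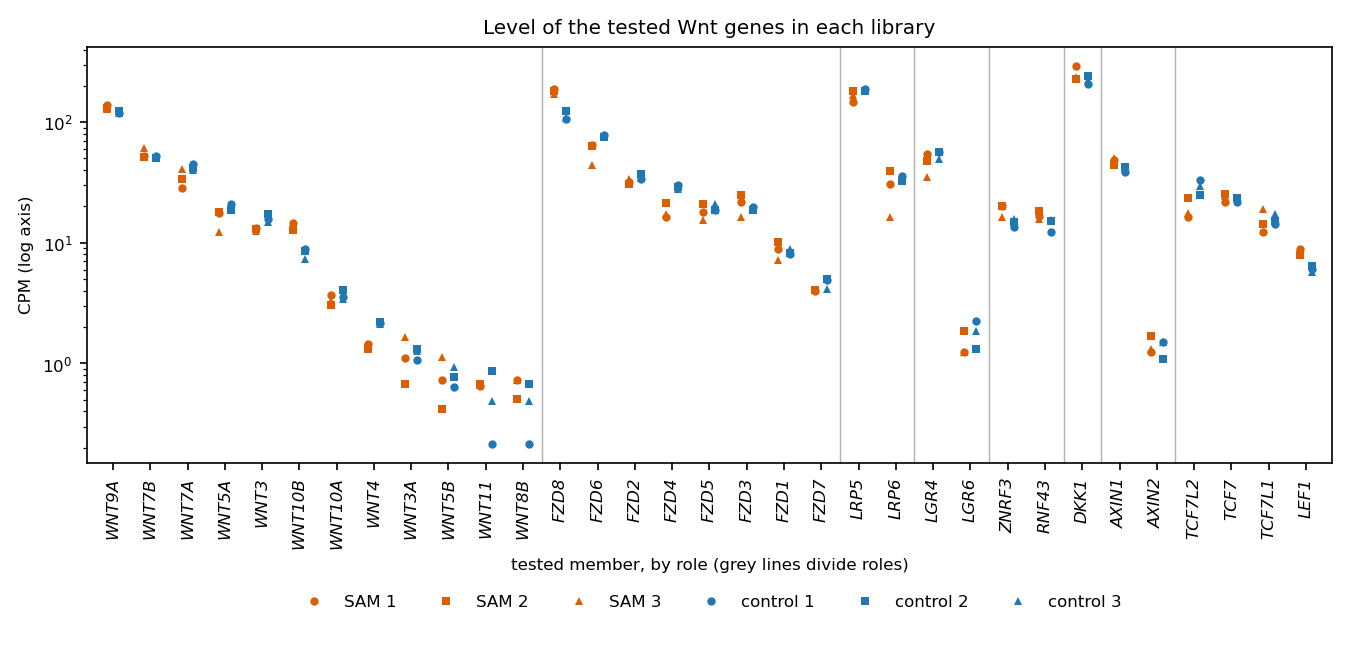
CPM on a log axis (vertical) of the 33 tested members (horizontal axis, by role), with SAM in orange to the left of controls in blue and a marker shape for each replicate. WNT9A, FZD8, LRP5 and DKK1 lie above 100 CPM in every library, and the lowest tested ligands lie around or under 1 CPM.

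The plot of levels shows the RNA level of each tested member in these cells. Levels of different genes were compared per kilobase of exonic length (CPM per kb), taken over all annotated exons of a gene. DKK1, a secreted antagonist that binds LRP5 and LRP6, was the highest member in both groups, at 114 ± 15.9 CPM per kb with SAM and 101 ± 7.36 in controls (SD, n = 3). In controls the ligand WNT9A (30.2 ± 0.640), the co-receptor LRP5 (29.9 ± 0.635) and the receptor FZD8 (27.8 ± 2.27) followed, and these neighbours did not differ beyond their spread. With SAM, FZD8 came second at 44.2 ± 2.16 CPM per kb, above WNT9A at 33.1 ± 1.20 and LRP5 at 26.6 ± 2.78. FZD6 ranked 5 in both groups, at 14.1 ± 2.79 CPM per kb with SAM and 18.7 ± 0.531 in controls, and WNT7B ranked 6 in both, at 10.8 ± 1.13 with SAM and 10.1 ± 0.235 in controls.

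Among the ligands, WNT10B, a protein known for promoting bone formation, rose with SAM. WNT10B (ENSG00000169884, chromosome 12, positions 48965340 to 48971763 in GRCh38) was at 14.6, 12.7 and 13.9 CPM in SAM 1 to 3, against 8.90, 8.63 and 7.39 CPM in control 1 to 3. Each SAM library lay above each control library. The mean was 13.7 ± 0.974 CPM with SAM and 8.31 ± 0.804 CPM in controls, a 1.67-fold difference (log2 fold change 0.74, SE 0.13, edgeR adjusted p = 0.0114). The call was lost without SAM 1 (adjusted p = 0.0632), control 2 (0.0556) or control 3 (0.0829), with log2 fold changes of 0.65 to 0.79 over the 6 fits that leave out a library.

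WNT9A was the most abundant ligand, at 138, 132 and 128 CPM in SAM 1 to 3 and 120, 124 and 119 CPM in control 1 to 3. These groups did not overlap either, but the log2 fold change of 0.13 did not pass (edgeR adjusted p = 0.34, 95% interval -0.07 to 0.33). WNT7B, a ligand of many epithelia, had a log2 fold change of 0.10 with an interval of -0.12 to 0.32. A further 4 ligands had values below controls in all SAM libraries or intervals below 0 without passing the adjustment. Of these WNT4, a ligand of reproductive tract and kidney development, averaged 1.37 ± 0.0656 CPM with SAM and 2.16 ± 0.0608 CPM in controls (log2 fold change -0.64, SE 0.20, edgeR adjusted p = 0.0643). WNT3, WNT7A and WNT5A had log2 fold changes of -0.32, -0.30 and -0.29, with edgeR adjusted p = 0.0967, 0.149 and 0.227. WNT7A, WNT3 and WNT4 were chosen for mention after their values were seen, as was WNT5A, the ligand best known for signalling without beta-catenin. WNT7A spread widely with SAM, at 28.4, 33.7 and 40.7 CPM in SAM 1 to 3, against 45.4, 41.4 and 39.9 CPM in control 1 to 3. Without SAM 3 its log2 fold change was -0.45 and it passed (edgeR adjusted p = 0.017). The other 5 tested ligands, WNT10A, WNT3A, WNT5B, WNT11 and WNT8B, overlapped between the groups and lay between 0.215 and 4.04 CPM in every library. The 7 ligands below the filter were WNT1, WNT2, WNT2B, WNT6, WNT8A, WNT9B and WNT16, with at most 19 counts in a library, and WNT8A and WNT9B had none.

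Many Wnt genes lie in pairs, and 4 such pairs of members lay close together in the deposited coordinates. In each pair the partners were expressed at very different levels. WNT10B and WNT1 are separated by 6690 bases on chromosome 12, and WNT1 had at most 3 counts in any library. WNT9A and WNT3A are separated by 59153 bases on chromosome 1, at 33.1 and 0.382 CPM per kb with SAM and 30.2 and 0.407 CPM per kb in controls. WNT10A and WNT6 are separated by 6130 bases on chromosome 2. WNT6 had at most 1 count in any library, while WNT10A was at 1.15 CPM per kb with SAM and 1.26 CPM per kb in controls. WNT3 and WNT9B are separated by 47 bases on chromosome 17, and WNT9B had no count while WNT3 was at 2.38 CPM per kb with SAM and 2.97 CPM per kb in controls.

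Among the Frizzled receptors, FZD8 rose and FZD4 fell. FZD8 (ENSG00000177283, chromosome 10, positions 35638249 to 35642278) was at 187, 180 and 170 CPM in SAM 1 to 3, against 106, 123 and 109 CPM in control 1 to 3. The lowest SAM library lay well above the highest control library. It averaged 179 ± 8.75 CPM with SAM and 113 ± 9.19 CPM in controls, 1.59-fold higher with SAM (log2 fold change 0.67, SE 0.10, edgeR adjusted p = 0.00617), and lost its call without control 3 alone (adjusted p = 0.0673). FZD4 (ENSG00000174804, chromosome 11, positions 86945679 to 86955391), a receptor also used by norrin in retinal vessels, was at 16.4, 21.4 and 17.4 CPM in SAM 1 to 3, against 30.2, 28.8 and 27.9 CPM in control 1 to 3. Again the groups did not overlap. FZD4 averaged 18.4 ± 2.64 CPM with SAM and 29.0 ± 1.20 CPM in controls (log2 fold change -0.66, SE 0.12, edgeR adjusted p = 0.0114). Its call was lost without SAM 1 (adjusted p = 0.0669), control 1 (0.0642), control 2 (0.0610) or control 3 (0.0738), while its log2 fold change ran from -0.78 to -0.59 over the 6 fits. Exons of PRSS23 on the opposite strand cover 18.9% of the exonic bases of FZD4, and no source used here states if the counting was strand-specific. PRSS23 averaged 70.2 CPM with SAM and 79.6 CPM in controls (log2 fold change -0.18, edgeR adjusted p = 0.189), and its part in the FZD4 counts was not tested.

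**Figure D2:**
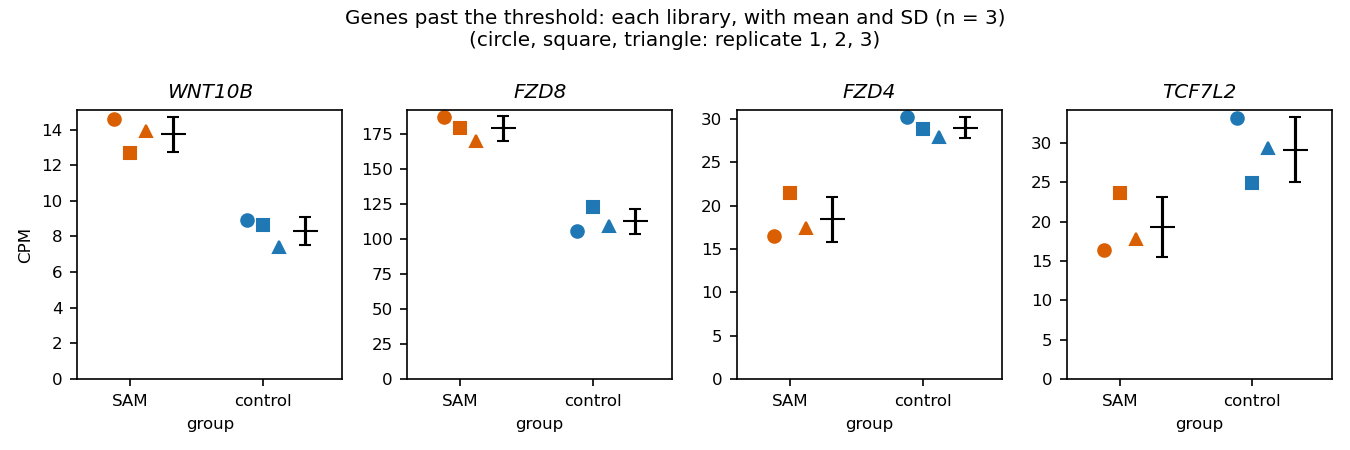
CPM (vertical axes, from 0) of WNT10B, FZD8, FZD4 and TCF7L2 in each library, SAM in orange left of control in blue, with the mean and SD of 3 libraries in black. No SAM library overlaps a control library in any of the 4 genes, and TCF7L2 comes closest, with 23.7 CPM in SAM 2 and 24.9 CPM in control 2.

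FZD6, a receptor of planar cell polarity, was at 64.6, 63.5 and 44.4 CPM in SAM 1 to 3, against 78.5, 74.8 and 74.7 CPM in control 1 to 3. Its log2 fold change of -0.40 did not pass (SE 0.14, edgeR adjusted p = 0.0868). It passed without SAM 3 (log2 fold change -0.24, adjusted p = 0.0453), without SAM 2 (-0.47, 0.0489), with no filter on low counts (-0.39, 0.0189) and after the trend with transcript length and GC was removed (-0.35, 0.0312). FZD6 was singled out after its values were seen. FZD1, FZD2, FZD3, FZD5 and FZD7 did not pass either and had log2 fold changes between -0.22 and 0.14. FZD9 had at most 2 counts in a library and FZD10 had none.

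The makeup of the Frizzled family differed between the groups. As a share of the summed CPM per kb of all Frizzled genes, FZD8 took 58.5, 56.8 and 60.3% in SAM 1 to 3, against 40.3, 44.2 and 41.6% in control 1 to 3. FZD4 took 3.30% ± 0.454 with SAM and 5.94% ± 0.342 in controls (SD, n = 3), and FZD6 18.6% ± 2.50 with SAM and 28.3% ± 1.53 in controls. Shares of a sum are tied to each other, so part of a lower share follows from the higher level of FZD8. In the ligand family WNT9A took 51.6% ± 2.45 with SAM and 49.2% ± 0.917 in controls, and WNT10B 8.24% ± 0.463 with SAM and 5.20% ± 0.379 in controls. The groups overlapped for WNT9A and did not for WNT10B.

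**Figure D3:**
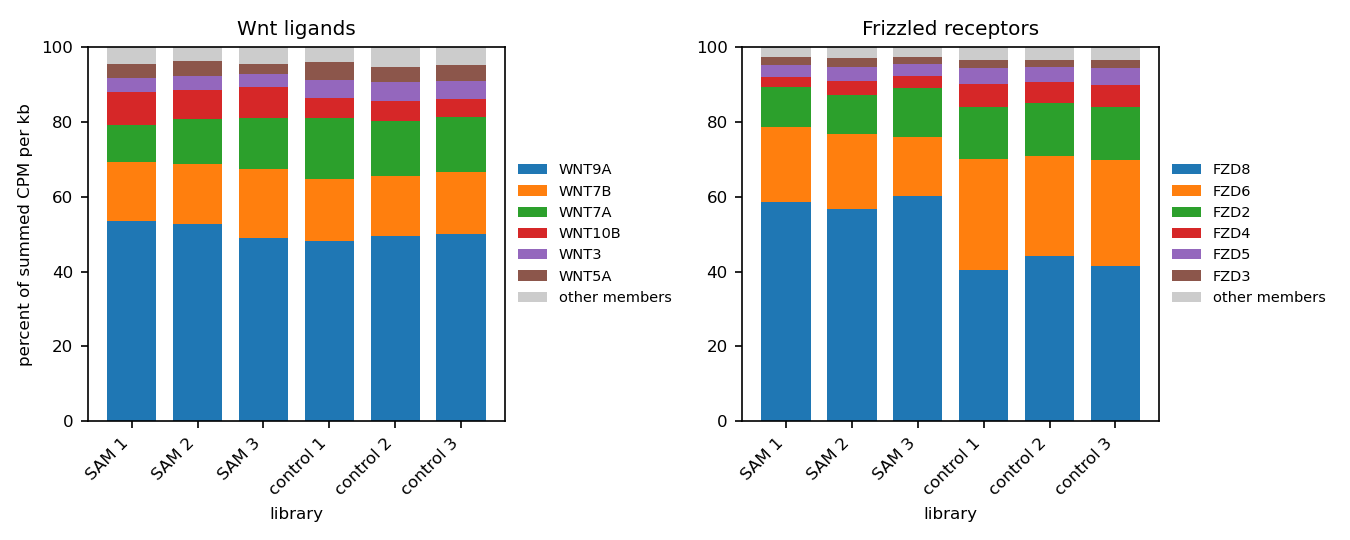
Percent of the summed CPM per kb (vertical axes) of the Wnt ligands (left) and Frizzled receptors (right) taken by their 6 highest members in each library (horizontal axes, SAM left of control), with the remaining members in grey. FZD8 takes 56.8 to 60.3% of the Frizzled sum with SAM and 40.3 to 44.2% in controls, and WNT9A takes 48.2 to 53.4% of the ligand sum over all libraries.

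The co-receptors and the receptors for R-spondins did not pass the threshold. LRP5 was at 146, 180 and 167 CPM in SAM 1 to 3 and 188, 180 and 186 CPM in control 1 to 3, with SAM below by a narrow margin (log2 fold change -0.17, 95% interval -0.40 to 0.05, edgeR adjusted p = 0.276). LRP6 depended on a single library. It was at 30.7, 39.1 and 16.5 CPM in SAM 1 to 3, against 35.9, 32.8 and 32.5 CPM in control 1 to 3, and its log2 fold change was -0.23 with all libraries and 0.04 without SAM 3. LGR4, the main R-spondin receptor here, was at 54.7, 47.2 and 35.2 CPM in SAM 1 to 3, against 56.6, 56.7 and 49.6 CPM in control 1 to 3 (log2 fold change -0.24, 95% interval -0.57 to 0.08, edgeR adjusted p = 0.285). SAM 3 was again the lowest library. LGR6 reached at most 2.25 CPM, and LGR5, a stem cell marker of the intestine, had at most 2 counts in a library. Of these 4 tested receptors 0 passed, also by DESeq2 or limma voom, and 0 reached an unadjusted p under 0.05. Over all tested genes 10.4% passed by edgeR and 30.6% had an unadjusted p under 0.05. The R-spondins RSPO1 to RSPO4 had at most 8 counts in a library and were not tested.

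RNF43 and ZNRF3, the ligases that remove Frizzled receptors, were both above controls in every SAM library without passing. RNF43 was at 16.8, 18.2 and 15.7 CPM in SAM 1 to 3, against 12.3, 15.1 and 15.6 CPM in control 1 to 3 (log2 fold change 0.22, 95% interval -0.06 to 0.50, edgeR adjusted p = 0.257). Exons of other annotated genes cover 69.0% of its exonic bases, so its counts are uncertain. ZNRF3 averaged 18.8 ± 2.14 CPM with SAM and 14.7 ± 1.05 CPM in controls (log2 fold change 0.35, SE 0.12, edgeR adjusted p = 0.09). It passed without SAM 3 (log2 fold change 0.44, adjusted p = 0.0187) and with the length and GC trend removed (0.40, 0.0354). By edgeR 0 of the 2 ligases passed with all libraries and 1 had an unadjusted p under 0.05, beside 10.4% and 30.6% of all tested genes. DESeq2 and limma voom called 0.

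Of the secreted antagonists only DKK1 was abundant enough to be tested. DKK1 (ENSG00000107984, chromosome 10, positions 52314296 to 52318042) was at 292, 226 and 239 CPM in SAM 1 to 3, against 209, 241 and 224 CPM in control 1 to 3. The groups overlapped, and SAM 1 stood above the other 5 libraries. The log2 fold change was 0.17 (95% interval -0.09 to 0.43, edgeR adjusted p = 0.353), and without SAM 1 it was 0.04. Exons of PRKG1-AS1 on the opposite strand cover 10.2% of the exonic bases of DKK1. DKK3 had 6 to 13 counts in each library, DKK2 at most 1, and DKK4 none. The SFRP genes, which encode scavengers of Wnt ligands, were all near 0, with at most 2 counts of SFRP1, SFRP2 or SFRP4 in a library and none of SFRP5.

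Of the AXIN scaffolds, AXIN1 was at 48.4, 43.9 and 50.7 CPM in SAM 1 to 3, against 38.3, 42.5 and 40.6 CPM in control 1 to 3. SAM lay above the controls in each library, and the difference did not pass (log2 fold change 0.23, SE 0.09, edgeR adjusted p = 0.12). AXIN2, the feedback gene most often read as a sign of beta-catenin activity, was low, at 1.42 ± 0.241 CPM with SAM and 1.37 ± 0.243 CPM in controls. Exons of another annotated gene on the same strand cover 25.3% of its exonic bases, so its counts are uncertain. Its log2 fold change was 0.04 (SE 0.25, edgeR adjusted p = 0.955) with a 95% interval of -0.52 to 0.59. This interval includes changes in either direction, and the part of depth in its width was not tested. By edgeR 0 of the 2 scaffolds passed and 1 had an unadjusted p under 0.05, beside 10.4% and 30.6% of all tested genes. DESeq2 and limma voom called 0.

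Of the nuclear TCF/LEF factors TCF7L2 fell. TCF7L2 (ENSG00000148737, chromosome 10, positions 112950250 to 113167678), a main partner of beta-catenin on DNA in epithelia, was at 16.4, 23.7 and 17.8 CPM in SAM 1 to 3, against 33.1, 24.9 and 29.4 CPM in control 1 to 3. The groups did not overlap, but SAM 2 and control 2 nearly met. The mean was 19.3 ± 3.85 CPM with SAM and 29.1 ± 4.14 CPM in controls (log2 fold change -0.60, SE 0.15, edgeR adjusted p = 0.0387). The call was lost without SAM 1 (adjusted p = 0.155), SAM 3 (0.0527), control 1 (0.155), control 2 (0.0690) or control 3 (0.16), with log2 fold changes of -0.76 to -0.49. LEF1, the relative most often induced by the pathway itself, averaged 8.20 ± 0.593 CPM with SAM and 6.07 ± 0.364 CPM in controls and did not pass (log2 fold change 0.44, SE 0.14, edgeR adjusted p = 0.0659). It passed without SAM 3 (0.48, adjusted p = 0.0365) and after removal of the trend with length and GC (0.47, 0.0349), and it was singled out after its values were seen. TCF7 and TCF7L1 had log2 fold changes of 0.05 and -0.05, with 95% intervals of -0.17 to 0.27 and -0.42 to 0.33.

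**Figure D4:**
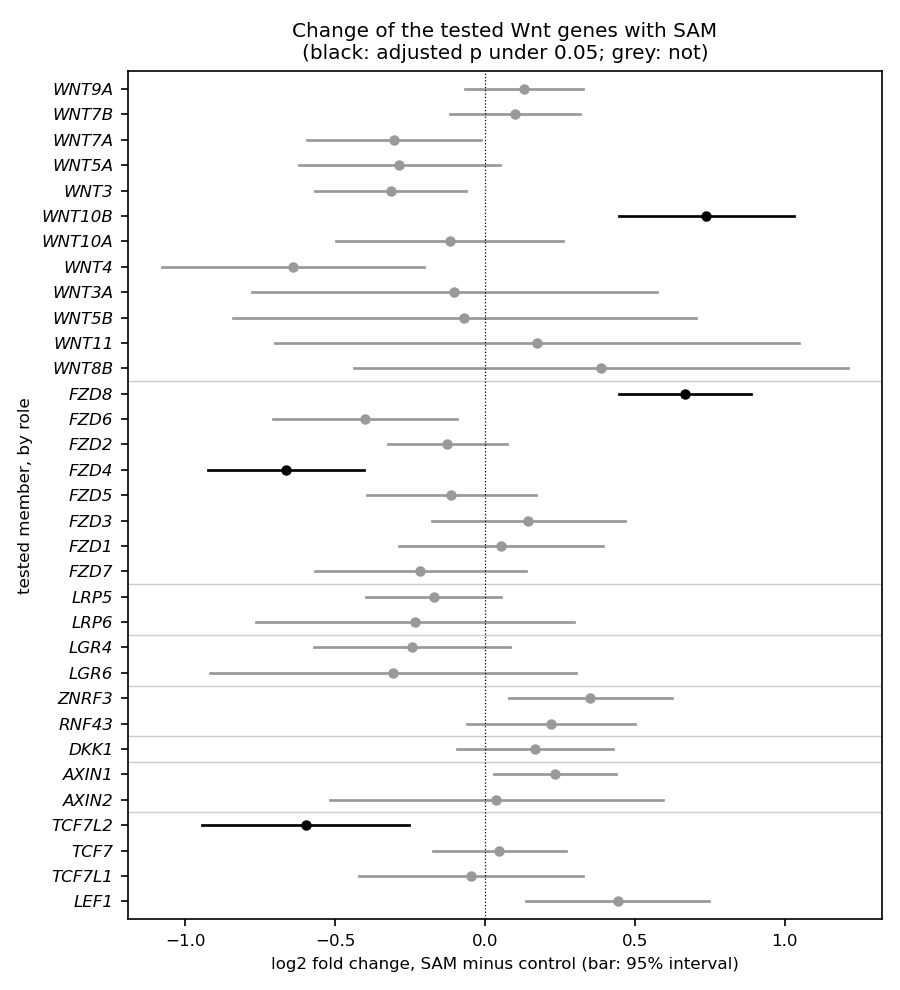
Log2 fold change, SAM minus control (horizontal axis), of each tested member (vertical axis, by role), with 95% intervals as bars and black where the edgeR adjusted p was under 0.05. WNT10B (0.74) and FZD8 (0.67) lie to the right of 0 and FZD4 (-0.66) and TCF7L2 (-0.60) to the left, and several grey intervals also leave 0 out.

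SAM supplies the methyl group of DNA methylation, which in promoters falls on the C of CpG. DNA methylation was not measured in these libraries, so the promoters are given as sequence only. RefSeq promoters (GRCh38.p14) were matched for 37 of the 54 members, 23 of them tested, and the 250 bases before the start were read. The median member held 22 CpG, against 11 over 27305 promoters of all genes, with an observed over expected CpG ratio of 0.742 against 0.556. All members are protein-coding, and the promoters of all genes were not restricted by gene type. The letters GGGCGG on either strand, a GC box that itself holds a CpG, were found in 78.4% of the 37 member promoters and 42.3% of all promoters. The letters CTTTGA on either strand, part of the TCF/LEF motif, were found in 1 member promoter, that of DKK1 (2.70%), against 11.4% of all promoters. WNT10B, which also passed the threshold, had no matched promoter. Shown are the promoters of 3 genes past the threshold, with each CpG in capitals, on the strand of the gene.
FZD8: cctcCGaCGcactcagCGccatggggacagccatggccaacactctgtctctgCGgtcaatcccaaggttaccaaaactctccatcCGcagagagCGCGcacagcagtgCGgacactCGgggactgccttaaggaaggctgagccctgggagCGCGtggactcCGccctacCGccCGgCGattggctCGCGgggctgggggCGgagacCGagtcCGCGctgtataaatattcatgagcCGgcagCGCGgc
FZD4: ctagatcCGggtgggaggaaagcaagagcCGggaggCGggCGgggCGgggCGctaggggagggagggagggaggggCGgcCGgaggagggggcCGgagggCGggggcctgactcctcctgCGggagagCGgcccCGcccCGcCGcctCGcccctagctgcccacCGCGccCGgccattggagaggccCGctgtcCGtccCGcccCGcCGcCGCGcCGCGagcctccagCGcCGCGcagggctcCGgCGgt
TCF7L2: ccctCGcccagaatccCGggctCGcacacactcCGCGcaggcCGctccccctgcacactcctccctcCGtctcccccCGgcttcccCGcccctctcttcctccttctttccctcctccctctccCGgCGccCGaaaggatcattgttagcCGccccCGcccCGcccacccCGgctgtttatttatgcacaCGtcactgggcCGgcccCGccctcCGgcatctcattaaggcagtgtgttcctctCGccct
These stretches lie at chr10:35642297-35642546 on the minus strand for FZD8, chr11:86955396-86955645 on the minus strand for FZD4 and chr10:112949997-112950246 on the plus strand for TCF7L2. They held 24, 33 and 21 CpG, all above the median of all promoters, and GGGCGG was found 3, 6 and 5 times in FZD8, FZD4 and TCF7L2. The median of the 23 tested members with a promoter was 24 CpG. FZD8 rose while FZD4 and TCF7L2 fell, and any part of promoter CpG in these changes was not tested. The promoter of DKK1, at chr10:52314031-52314280 on the plus strand, is shown with both CTTTGA matches in capitals, the first of them on the opposite strand.
DKK1: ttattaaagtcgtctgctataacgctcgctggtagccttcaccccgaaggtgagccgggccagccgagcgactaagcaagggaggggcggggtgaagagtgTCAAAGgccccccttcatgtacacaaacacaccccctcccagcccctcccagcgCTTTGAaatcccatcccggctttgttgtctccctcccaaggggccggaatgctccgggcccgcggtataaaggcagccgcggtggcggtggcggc
The letters TATAAA were also found in the promoters of DKK1, FZD8 and TCF7, 8.11% of member promoters, against 11.1% of all promoters.

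A further 77 genes of the pathway were read from the same fit in 5 lists, and 69 of them were tested. Of these, 4 were higher and 9 lower with SAM, and the median log2 fold change was -0.04. After removal of the trend with length and GC there were 5 higher and 12 lower, and the median was 0.05, beside 0.02 over all genes. Together 18.8% of the tested pathway genes passed, against 10.4% of all tested genes. The lists were chosen with earlier results of these data known, so a share above that of all genes is not independent evidence. This holds for each list below. Without each library in turn, the higher genes numbered 1 to 6 and the lower genes 1 to 14. The fewest passed without SAM 1 (1 higher, 1 lower), control 1 (1, 2), control 2 (1, 2) or control 3 (1, 1), and without SAM 2 there were 5 higher and 14 lower. Over all tested genes 0.909 to 1.61% passed without SAM 1 or a control library, and 20.3% without SAM 2.

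Receptors and adaptors of planar polarity and of signalling without beta-catenin fell in 4 of 14 tested genes (28.6%, against 5.24% of all tested genes) and rose in none. The 3 with the smallest p were CELSR3, CELSR2 and CELSR1, the family of atypical cadherins that align epithelial cells. CELSR3 was at 8.37, 11.3 and 8.58 CPM in SAM 1 to 3, against 16.2, 17.9 and 17.2 CPM in control 1 to 3 (log2 fold change -0.88, SE 0.14, edgeR adjusted p = 0.00839). CELSR2 was at 25.0, 32.6 and 27.7 CPM in SAM 1 to 3, against 48.7, 42.8 and 45.2 CPM in control 1 to 3 (log2 fold change -0.68, SE 0.11, adjusted p = 0.00918). CELSR1 was at 32.7, 44.6 and 31.2 CPM in SAM 1 to 3, against 54.3, 51.0 and 61.7 CPM in control 1 to 3 (log2 fold change -0.63, SE 0.14, adjusted p = 0.0237). In all 3 genes SAM 2 was the highest SAM library, and the groups did not overlap. DAAM1, a formin downstream of DVL, completed the 4 (log2 fold change -0.46, adjusted p = 0.028). The list median was -0.27, and 11 of the 14 genes had a negative log2 fold change, beside 7795 of all 15312 tested genes. After removal of the trend with length and GC the list median was -0.20, beside 0.02 over all genes, and 5 genes were lower. In that fit the log2 fold changes of CELSR3, CELSR2 and CELSR1 were -0.80, -0.61 and -0.54. Calls depended on single libraries. CELSR3 was lost without SAM 1 (adjusted p = 0.0582), control 2 (0.0522) or control 3 (0.0618), CELSR2 without SAM 1 (0.0587), control 1 (0.0592) or control 3 (0.0685), and CELSR1 without SAM 1 (0.119), control 1 (0.0923), control 2 (0.0652) or control 3 (0.134). Without SAM 1 or control 3 the list held 0 falls by edgeR, and 1 without control 1 or control 2. In those fits 0.909 to 1.61% of all tested genes passed in either direction. The list median was lowest without SAM 2 (-0.33) and highest without SAM 3 (-0.17).

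Genes reported as beta-catenin targets moved both ways, with 4 higher (21.1%) and 3 lower (15.8%) of 19 tested and a median of 0.20, where 5.19% and 5.24% of all tested genes were higher and lower. Without SAM 1, control 1, control 2 or control 3 the list held 1 higher and 1 lower gene in each fit. In those fits 0.909 to 1.61% of all tested genes passed. With the replicate block the list held 2 higher and 3 lower genes. FOSL1, an AP-1 subunit, was at 382, 385 and 443 CPM in SAM 1 to 3, against 228, 229 and 250 CPM in control 1 to 3 (log2 fold change 0.78, SE 0.10, edgeR adjusted p = 0.00293). SOX4, a transcription factor of progenitor cells, was at 76.0, 89.6 and 84.4 CPM in SAM 1 to 3, against 157, 154 and 137 CPM in control 1 to 3 (log2 fold change -0.84, SE 0.10, adjusted p = 0.00258). Both stayed past the threshold without each library in turn. NKD2, an inhibitor of DVL, averaged 19.5 ± 0.388 CPM with SAM and 13.1 ± 1.28 CPM in controls (log2 fold change 0.58, adjusted p = 0.0165), and was lost without SAM 1 (0.0726), control 1 (0.0790), control 2 (0.0867) or control 3 (0.0682). Many of these genes also answer to other pathways.

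In the destruction complex and its partners 1 of 17 tested genes passed (5.88%, against 10.4% of all tested genes). This was GSK3B, the kinase that marks beta-catenin for degradation. GSK3B was at 165, 203 and 151 CPM in SAM 1 to 3, against 243, 226 and 242 CPM in control 1 to 3 (log2 fold change -0.46, SE 0.12, edgeR adjusted p = 0.0376), and it did not pass without SAM 1 (0.141), control 1 (0.146), control 2 (0.102) or control 3 (0.173), nor with the replicate block (0.0636). After removal of the trend with length and GC its log2 fold change was -0.27 (adjusted p = 0.0449). The medians of this list and of the nuclear cofactors were -0.04 and -0.05, and in that fit they were 0.05 and 0.06. CTNNB1, which encodes beta-catenin, had a log2 fold change of -0.04 (SE 0.09). Of 13 nuclear cofactors 1 passed (7.69%, against 10.4% of all tested genes), the corepressor TLE2. TLE2 was at 20.9, 23.5 and 33.4 CPM in SAM 1 to 3, against 36.6, 41.7 and 37.1 CPM in control 1 to 3 (log2 fold change -0.58, SE 0.16, edgeR adjusted p = 0.048). It did not pass without any library except SAM 3, with adjusted p of 0.0632 to 0.156 in those 5 fits, nor with upper-quartile factors (0.0571). In the list of ligand secretion and other antagonists 0 of 6 tested genes passed by edgeR, DESeq2 or limma voom. An unadjusted p under 0.05 was found in 2 of them (33.3%, against 30.6% of all tested genes).

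**Figure D5:**
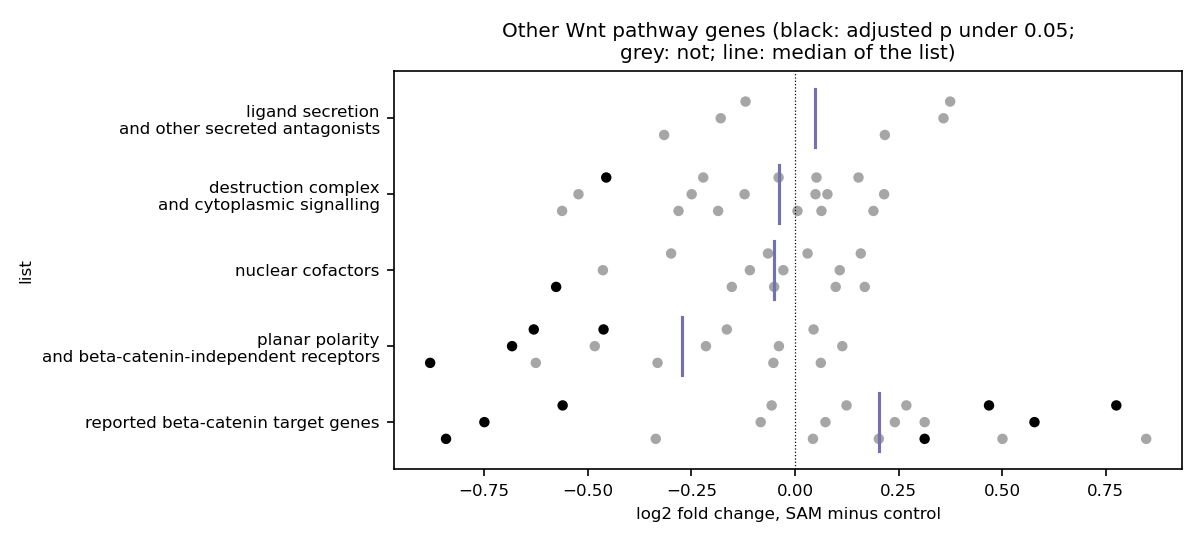
Log2 fold change, SAM minus control (horizontal axis), of the tested genes of 5 lists of other pathway genes (vertical axis), black where the edgeR adjusted p was under 0.05, with the list median as a line. In the planar polarity list the median is -0.27 and 4 genes passed, all lower, and among reported targets 4 passed above 0 and 3 below.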

How the data were processed

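RNA of PC-3 cells was sequenced from 3 SAM and 3 control libraries. A Peq-Gold kit, TruSeq preparation and a HiSeq2000 were used, per the labels. Tools listed in the submitters' processing notes, with no role given, include STAR 2.4, HTSeq 0.6.1, SAMtools 0.1.19 and DESeq2 1.8. The same notes list hg19 and mm10 as builds. The study's text gives another dose, kit and sequencer for its RNA sequencing, and the labels were followed. The authors deposited raw counts per Ensembl gene and a normalised signal, in which each library's counts were divided by its own size factor (0.562 to 1.75). Coordinates are the table's own. Of 51488 identifiers shared with GENCODE release 44 (GRCh38), 99.8% overlap that gene.

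Counts were tested with edgeR 4.0.16 (quasi-likelihood F test, two-sided, under R 4.3.3), with treatment alone in the design, TMM scaling and 15312 genes left by filterByExpr. CPM use TMM-scaled totals, and CPM per kb divides them by the GENCODE exonic length of the gene. The SE was taken from the fold change and its F statistic (|log2 fold change|/√F), and 95% intervals use the fit's degrees of freedom. On counts simulated for 15312 genes of this comparison, the fit recovered 26.9% of the 67 genes given a 1.5-fold change. For 2-fold changes it recovered 71.6% of 67 genes and for 4-fold changes 90.9% of 66, while 10.6% of its calls were false. Only these genes were changed, a smaller share than the 10.4% called in the data. The rates in the data may therefore differ. The 3413 genes without a name took 0.468 to 0.619% of counts. Replicates differed by more than sampling noise (chi-square per degree of freedom 4.57 to 55.2), so none were merged.

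The members and lists were chosen with earlier results of these data known. Every called member and the highest tested member per role by CPM per kb are given in every library, and up to 3 called genes per list with the smallest p are named. Alternatives were RLE, upper-quartile and no scaling factors, no filter, a minimum of 1 CPM in 3 libraries, a robust dispersion fit, limma voom (limma 3.58.1), DESeq2 1.42.0, limma on log2 of the deposited normalised signal plus 1, a block for the replicate number, leaving out each library in turn, control 1 and SAM 2 left out or given a term, and an adjusted p under 0.01. Removal of the length and GC trend was added after seeing the data. Figures were drawn with matplotlib 3.10.9. Some marker genes are not reported here.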

Additional observations from a re-analysis of the deposited data

How the results depend on the processing

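Counts of called genes depended on the libraries kept and directions mostly did not. With 1 library left out, members higher with SAM numbered 0 (without control 3) to 4 (without SAM 3) and members lower 0 to 3, other pathway genes 1 to 6 higher and 1 to 14 lower, and all genes 61 to 1661 higher and 78 to 1572 lower. In these 6 fits 7 to 13 members had an unadjusted p under 0.05, 20.6 to 37.1% of those tested, where 19.3 to 37.2% of all genes did, and 0.909% (without control 3) to 20.3% (without SAM 2) of all tested genes passed. With adjusted p under 0.01 the counts were 1 higher and 0 lower for members, 1 and 3 for other pathway genes and 126 and 127 for all genes. For all genes they were 1402 and 1341 with no filter, 446 and 508 without control 1 and SAM 2 together, and 1256 and 1246 with a term for these libraries, where 14 other pathway genes were lower. Without both libraries 2 other pathway genes were higher. With the length and GC trend removed, an alternative chosen after seeing the data, 5 members (WNT10B, FZD8, FZD3, LEF1 and ZNRF3) and 1458 genes were higher. With no scaling factor 608 genes were higher and 961 lower. Deviations of same-numbered SAM and control libraries correlated at -0.17, -0.40 and 0.13, and those of SAM 2 and control 1 at 0.45. With 3 libraries in a group, such correlations cannot decide if equal numbers mark pairs. With the replicate block 440 genes and 2 other pathway genes were higher, 588 genes lower, and WNT10B, FZD8, FZD4 and TCF7L2 stayed called, while GSK3B did not. These 4 members kept their direction in each fit. The cause of the shifts was not tested.

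Log2 fold changes that changed sign belonged to members that had not passed. With 1 library left out, AXIN2 ran over -0.12 (without control 2) to 0.15, with -0.08 without SAM 2, FZD1 over -0.052 (without SAM 2) to 0.16, and WNT11 over -0.042 (without control 1) to 0.74. WNT3A ran over -0.39 to 0.090 (without SAM 2), WNT5B over -0.37 to 0.13 (without SAM 2), with 0.08 without control 3, LRP6 over -0.49 to 0.040 (without SAM 3), and TCF7L1 over -0.25 to 0.094 (without SAM 1), with 0.04 without control 3. Without control 1 and SAM 2 together, the values were -0.023 for AXIN2, -0.072 for FZD1, -0.047 for WNT11, 0.036 for WNT3A, 0.054 for WNT5B and -0.012 for TCF7. The 21 members that were not tested had at most 19 counts in a library, and 5 of them had none in any library. The part of depth in this was not tested.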
